A study of Mus musculus with 4 samples.

Results

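The 51 genes described here carry cells through mitosis and part their chromosomes. They comprise the kinases and cyclins of mitotic entry, the chromosomal passenger complex, the spindle assembly checkpoint, the machinery of anaphase onset, kinetochore proteins, spindle motors, cytokinesis proteins and the proteins that compact chromosomes. They were chosen by name for the function of their products, with no use of measured values in the rule, and matched by gene symbol. Earlier results of these data were known when they were chosen. Each of the 51 matched 1 of the 56748 rows of the count table, and all 51 averaged 10 CPM or more over the libraries, where CPM are the counts of a gene for every 1000000 counts of its library, and so passed the limit of 1 CPM met by 14366 genes.

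Bulk RNA-seq was run on cultured cells that the labels call fibroblasts of the mouse prostate. The 4 conditions (BuOE with radiation, PBS with radiation, BuOE, and PBS) had 1 library apiece. All donors were male C57BL/6 mice aged 8 to 10 weeks. The irradiated mice were given 37.5 Gy to the pelvis as fractions of 7.5 Gy over 5 days, at 1.2 Gy per minute and behind lead shielding, and the excised prostate was broken up with collagenase and put into serum-containing culture. BuOE is part of the chemical name of BMX-001, the redox-active manganese porphyrin of the title, and PBS, a buffered saline, is the label of the libraries without it. The labels give no dose, time or route of BuOE, do not say whether animals or cultures received it, and do not say how many animals stand behind a library. The title asks about fibrosis when the compound is given 3 weeks after radiation. With single libraries, a ratio describes a pair of libraries, and no spread between replicates can be set beside it.

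A dividing cell switches these genes on together in G2 phase, when the MuvB complex joins the transcription factors B-Myb (Mybl2) and FoxM1 at a promoter element called CHR. In resting cells the same MuvB core, joined to p107 or p130 (Rbl1, Rbl2) and E2F4 in the DREAM complex, holds them off. Cyclin B with Cdk1 then drives entry into mitosis, the checkpoint delays anaphase until every kinetochore is attached, and the anaphase-promoting complex with Cdc20 marks cyclin B and securin for destruction. Fibroblasts are mostly at rest in tissue and divide in culture with serum, so such transcripts are commonly used as a measure of how many cultured cells are cycling. In bulk RNA, fewer cycling cells and less of these RNAs per cycling cell cannot be told apart.

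In units of 1000000 counts the libraries held from 25.0 to 35.9, and the lowest count of any of the 51 genes in any library was 99. Fibroblast markers summed to 7588 CPM in the irradiated BuOE library, 11946 in the irradiated PBS library, 8590.0 in the unirradiated BuOE library and 9152 in the unirradiated PBS library, with none of the 14 at 0. Markers of other cells were present too. Epithelial markers, 13 in all, reached 7232, 4408, 6771 and 5097 CPM in that order of libraries, again with none at 0. The 9 macrophage and leukocyte markers summed to between 332 and 538 CPM, and the 7 lymphocyte markers to at most 3.54 CPM. In the same order of libraries the 9 endothelial markers came to 763, 820.3, 690.1 and 468 CPM and the 8 pericyte and smooth muscle markers to 713, 1049, 667 and 893 CPM. The 9 neuronal markers came to 88.4, 213, 579 and 114 CPM, with Syt1 at 0 in the unirradiated PBS library. The 7 Schwann cell markers came to 193, 238, 415 and 106 CPM, with none at 0. The 7 adipocyte markers came to 96.3, 78.1, 51.1 and 334 CPM, with Lep at 0 in both BuOE libraries and Adipoq at 0 in the unirradiated BuOE library.

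Mitosis genes were lower in both BuOE libraries than in both PBS libraries. Summed over the 51 genes, the level was 1114 CPM in the irradiated BuOE library and 3296 CPM in the irradiated PBS library, and 1437 CPM in the unirradiated BuOE library and 3717 CPM in the unirradiated PBS library. These sums differ by 2.96-fold between the irradiated pair and by 2.59-fold between the unirradiated pair. For 50 of the 51 genes, all but Pttg1, both BuOE libraries lay below both PBS libraries, as they did for 26.6% of all 14366 genes. In 45 of them the order was the same, with irradiated BuOE lowest, then unirradiated BuOE, then irradiated PBS, and unirradiated PBS highest. The share of all genes with this exact order was not counted. Cenpf, Ncapg and Smc2 had irradiated PBS at the top by a narrow margin, Ckap2 had unirradiated BuOE at the bottom, and Smc4 had both of these.

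**Figure D1:**
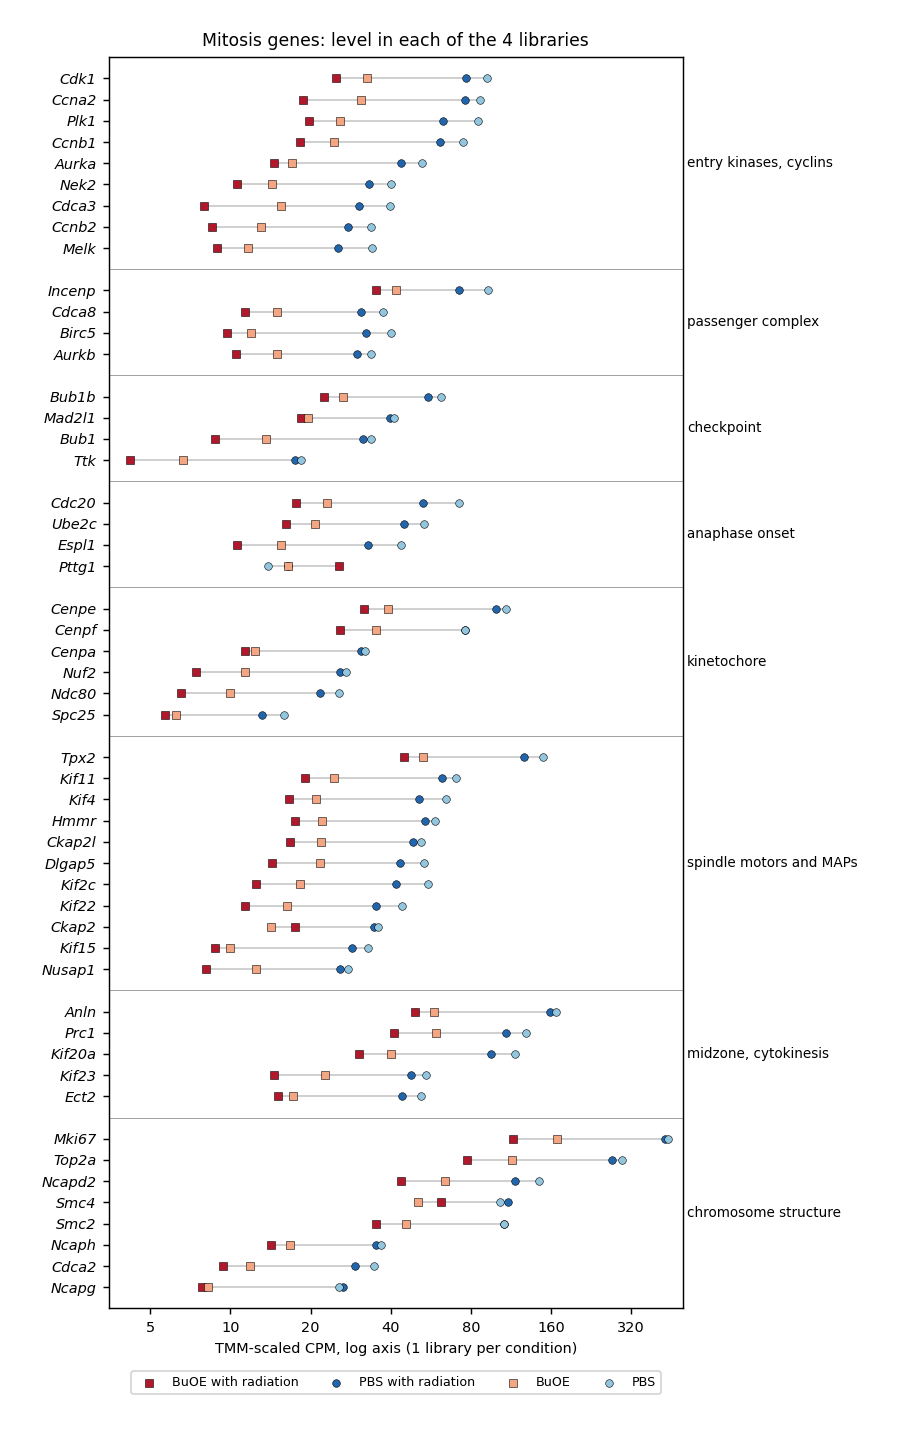
Level of each of the 51 mitosis genes in the 4 libraries, in TMM-scaled CPM on a log axis, grouped by role (MAPs are microtubule-associated proteins) with 1 point per library. The squares of the BuOE libraries lie left of the circles of the PBS libraries for every gene but Pttg1.

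Between the unirradiated libraries, which compare BuOE with PBS without radiation, 50 of the 51 genes were at least 1.5-fold lower with BuOE, against 10.3% of all genes. The same 50 were also at least 2-fold lower, against 4.13% of all genes, and none was 1.5-fold higher, against 16.3%. Their median log2 ratio was -1.38, or 2.59-fold lower, where that of all genes was 0.00. The quartiles of the mitosis genes (-1.53 and -1.25) were closer together than those of all genes (-0.28 and 0.34). Each ratio is a log2 ratio of scaled CPM, and the range printed after a gene's ratio is its exact binomial 95% interval, which covers counting error only.

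The irradiated pair shares no library with the unirradiated one. There, too, 50 of 51 genes were at least 1.5-fold lower in the BuOE library, against 12.4% of all genes, and 48 were at least 2-fold lower, against 5.31%. Pttg1 was at least 1.5-fold higher, against 13.0% of all genes. The median ratio was -1.63, or 3.09-fold lower, with quartiles of -1.71 and -1.49, and that of all genes -0.01. In both pairs the 95% counting interval of each of those 50 genes lay wholly beyond 1.5-fold lower. The share of all genes with such an interval was not counted. Across the 51 genes the ratios of the pairs had a Pearson correlation of 0.811 and a Spearman correlation of 0.488, and without Pttg1 these were 0.506 and 0.457. Those are correlations across genes, which are not independent replicates, and each gene has the same length and base composition in both pairs. Over all 14366 genes they were 0.138 and 0.412.

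**Figure D2:**
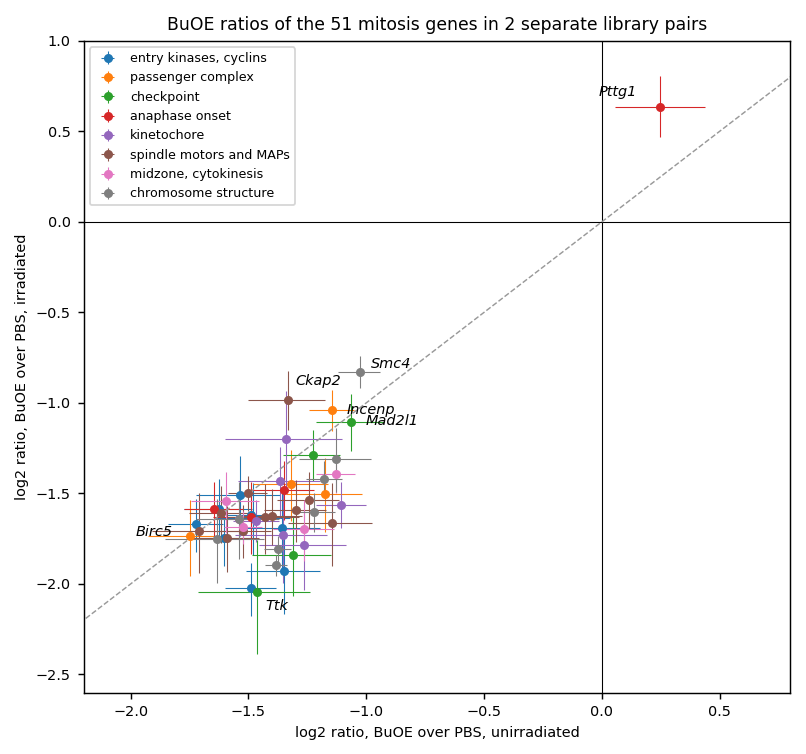
Log2 ratio of BuOE over PBS for each mitosis gene in the unirradiated pair (horizontal) and the irradiated pair (vertical), coloured by role, with bars for the 95% counting interval and a dashed line of equal ratios. All genes but Pttg1 lie in the lower left, and Smc4 and Ckap2 lie nearest to 0 among them in the irradiated pair.

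**Figure D3:**
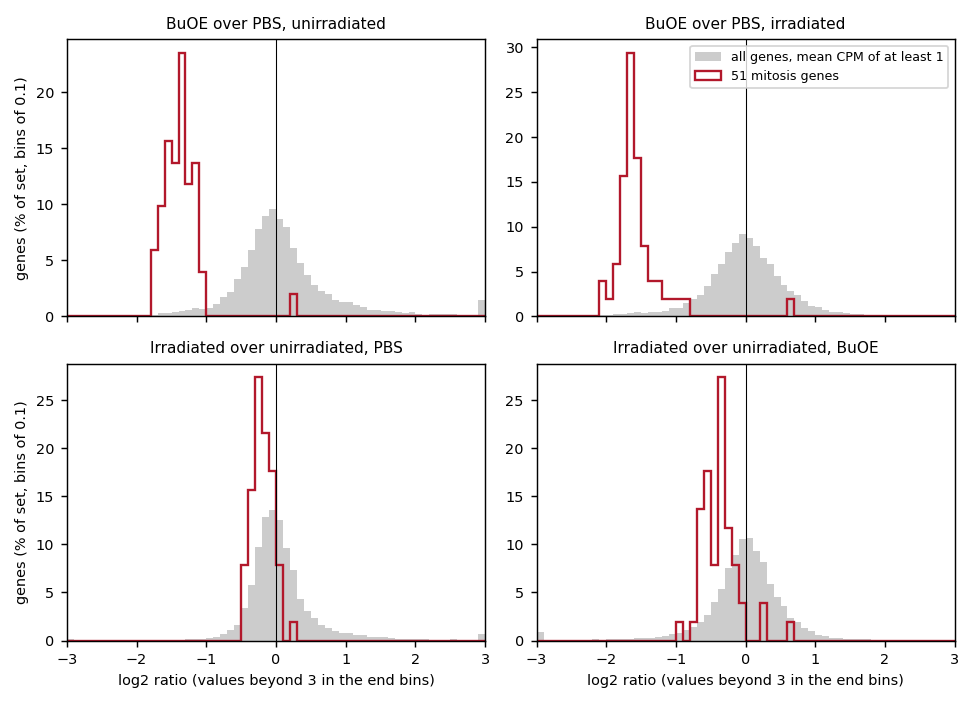
Distribution of log2 ratios in 4 library pairs, for all 14366 genes (grey) and the 51 mitosis genes (red outline), as percent of each set in bins of 0.1. With BuOE the mitosis genes stand in the lower tail of all genes, at medians of -1.38 and -1.63, and with radiation they overlap the bulk, at -0.23 and -0.39.

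Other measures differed between the same libraries. Of all 14366 genes, 7191 were higher and 7175 lower in the BuOE library of the unirradiated pair. In the irradiated pair 7101 were higher and 7265 lower. Between the unirradiated pair 12 of 13 epithelial markers and 8 of 9 macrophage and leukocyte markers were higher in the BuOE library. Between the irradiated pair these counts were 13 of 13 and 9 of 9. The 8 measured mitochondrially encoded mRNAs were all higher in the BuOE library of each pair, with medians of 0.82 and 1.73. Fibroblast markers had medians of 0.03 and -0.44. Some lists had opposite directions in the pairs. Neuronal markers were higher with BuOE in 9 of 9 genes in the unirradiated and lower in 9 of 9 in the irradiated pair, with medians of 4.34 and -1.96. Adipocyte markers were lower in 6 of 6 measured genes in the unirradiated and higher in 5 of 6 in the irradiated pair, with medians of -4.00 and 1.04. Schwann cell markers had medians of 2.63 and -0.26, and endothelial markers of 0.72 and -0.20. Pericyte and smooth muscle markers had medians of 1.59 and 0.26, although their sum was lower with BuOE in both pairs. The part of all these in the lower mitosis genes was not tested. The summed level of 12 ubiquitous reference genes was 14398 CPM in the irradiated BuOE library and 14354 in the irradiated PBS library, but 11517 CPM in the unirradiated BuOE library and 15909.9 in the unirradiated PBS library. Relative to that sum the median ratio of the mitosis genes was -0.91 between the unirradiated and -1.63 between the irradiated libraries.

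Many of the genes share a promoter feature. RefSeq promoter sequences (build GRCm38.p6, from 250 bases before to 50 after the gene start) were at hand for 43 of the 51 genes, with more than 1 window for Ect2 and Prc1. The CHR element was searched as TTTGAA or TTCGAA on both strands, and the CCAAT box, which the factor NF-Y binds in many mitotic promoters, as CCAAT on both strands. A CHR match stood in 33 of 43 genes (76.7%), against 21.7% of the 27025 genes in the promoter table and 16.3% of the 10722 of them that averaged 1 CPM or more. From 100 bases before to 50 after the start the shares were 69.8% against 9.87% of all genes. A CCAAT match stood in 74.4% of the 43, against 41.1% of all genes. Both motifs together occurred in 67.4% and 9.65%. For comparison, a CHR match stood in 56.9% of 65 mitosis genes outside the 51 and in 38.9% of 18 regulators of mitotic gene transcription. Of 40 replication and S phase genes, 22.5% had a CHR match. An E2F match (TTTCCCGC, TTTGGCGC or TTTCGCGC, both strands) stood in 37.5% of these 40, against 9.3% of the mitosis genes and 2.12% of all genes. Of the 65 and the 18, 12.3% and 33.3% had an E2F match. A match describes letters and not binding.

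Promoter stretches of 6 genes are given as the 100 bases before the gene start, with CHR and CCAAT matches of either strand in capitals. Cdk1, Cdc20, Espl1, Kif11 and Top2a are genes that were lower with BuOE and whose stretches hold both motifs. Pttg1 is the gene that was not lower. Genes that were lower with BuOE but had no CHR match are named after the sequences and are not printed. Each is given 5′ to 3′ in the direction of the gene.
Cdk1, chr10:69352913-69353012, minus strand: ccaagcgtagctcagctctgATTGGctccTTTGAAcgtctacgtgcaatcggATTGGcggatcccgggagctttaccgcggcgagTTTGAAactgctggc
Cdc20, chr4:118437344-118437443, minus strand: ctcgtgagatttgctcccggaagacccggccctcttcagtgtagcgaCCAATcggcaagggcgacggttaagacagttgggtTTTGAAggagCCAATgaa
Espl1, chr15:102296193-102296292, plus strand: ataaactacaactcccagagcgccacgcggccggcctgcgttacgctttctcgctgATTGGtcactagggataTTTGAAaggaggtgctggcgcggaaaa
Kif11, chr19:37376282-37376381, plus strand: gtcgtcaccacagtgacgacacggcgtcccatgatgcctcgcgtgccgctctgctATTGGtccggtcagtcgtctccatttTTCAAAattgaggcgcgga
Top2a, chr11:99024190-99024289, minus strand: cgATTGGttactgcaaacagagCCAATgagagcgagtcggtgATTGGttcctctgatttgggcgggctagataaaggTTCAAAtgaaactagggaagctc
Pttg1, chr11:43425982-43426081, minus strand: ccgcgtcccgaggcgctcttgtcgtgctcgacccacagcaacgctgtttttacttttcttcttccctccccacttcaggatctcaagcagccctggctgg

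The last base of each line is position -1. The Cdk1 stretch has CHR matches at positions -71 and -15, each following a CCAAT box on the reverse strand. Cdc20 has a match at -18, Espl1 at -27, and Kif11 at -19 and Top2a at -23 have it on the reverse strand. In the Pttg1 stretch neither motif occurs, nor did either occur in its whole window. Birc5, Ccnb1, Cenpe, Mad2l1, Melk, Ncaph, Nek2, Nuf2 and Nusap1 likewise had no CHR match in their windows, and each was lower with BuOE in both pairs. Of these, Birc5, Mad2l1, Melk, Ncaph, Nuf2 and Nusap1 had no CCAAT match either, so lacking both motifs was not particular to Pttg1. CHR matches started within 50 bases of the gene start in 29 of the 43 genes.

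**Figure D4:**
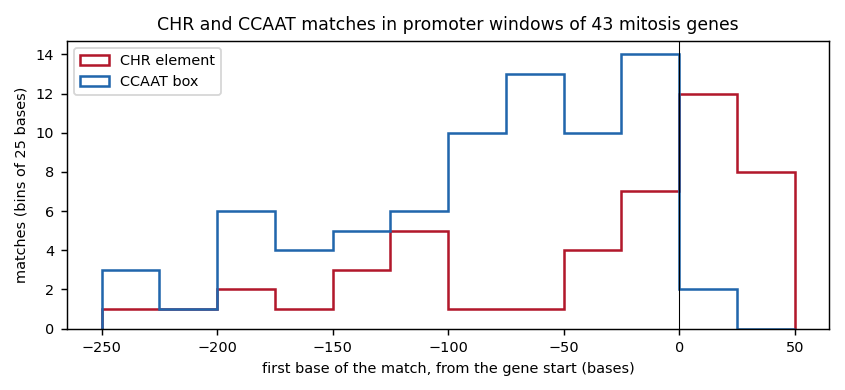
Number of CHR and CCAAT matches (either strand) by distance of their first base from the gene start, in bins of 25 bases, over the promoter windows of 43 mitosis genes, with 1 window per gene. CHR matches gather around the start, where 29 genes have 1 within 50 bases, and CCAAT matches gather before it.

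By role, the 9 genes of mitotic entry had a median ratio of -1.49 between the unirradiated and -1.67 between the irradiated libraries. Cdk1, the kinase that starts mitosis, stood at 25.0 CPM in the irradiated BuOE library and 77.0 in the irradiated PBS library, and 32.7 CPM in the unirradiated BuOE library and 91.7 in the unirradiated PBS library. Ccna2, the cyclin of S and G2 phase, stood at 18.6 CPM in the irradiated BuOE library and 76.0 in the irradiated PBS library, and 31.0 CPM in the unirradiated BuOE library and 86.9 in the unirradiated PBS library, and it had the next lowest ratio of all 51 in the irradiated pair, -2.02 (-2.18 to -1.88). Ccnb1 and Ccnb2 encode the B cyclins, the partners of Cdk1 in mitosis. Ccnb1 was at 18.3 CPM in the irradiated BuOE library and 61.5 in the irradiated PBS library, and 24.4 CPM in the unirradiated BuOE library and 74.5 in the unirradiated PBS library. Its ratios were -1.61 (-1.73 to -1.49) and -1.74 (-1.90 to -1.60), and those of Ccnb2 were -1.36 (-1.54 to -1.20) and -1.69 (-1.92 to -1.48). Plk1, polo-like kinase, which activates Cdk1 and acts at centrosomes and kinetochores, was at 19.8 CPM in the irradiated BuOE library and 63.1 in the irradiated PBS library, and 25.7 CPM in the unirradiated BuOE library and 84.9 in the unirradiated PBS library. The centrosome kinase genes Aurka (-1.62 and -1.59) and Nek2 (-1.48 and -1.63) lay in the same range. Melk, a kinase gene expressed in cycling cells, was at 8.90 CPM in the irradiated BuOE library and 25.4 in the irradiated PBS library, and 11.6 CPM in the unirradiated BuOE library and 33.9 in the unirradiated PBS library. Cdca3, whose product helps to remove the Cdk1 inhibitor Wee1, had 7.93 CPM in the irradiated BuOE library and 30.3 in the irradiated PBS library, and 15.5 CPM in the unirradiated BuOE library and 39.6 in the unirradiated PBS library. In all 9 genes both BuOE values lay below both PBS values, as they did in 26.6% of all 14366 genes.

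The 4 genes of the chromosomal passenger complex, which corrects faulty kinetochore attachments and guides cytokinesis, had a median ratio of -1.25 between the unirradiated and -1.47 between the irradiated libraries. Aurkb, its kinase, was at 10.5 CPM in the irradiated BuOE library and 29.9 in the irradiated PBS library, and 14.9 CPM in the unirradiated BuOE library and 33.7 in the unirradiated PBS library. Birc5, which encodes survivin, had the lowest ratio of all 51 between the unirradiated libraries, -1.75 (-1.93 to -1.58), and it stood at 9.66 CPM in the irradiated BuOE library and 32.4 in the irradiated PBS library, and 11.9 CPM in the unirradiated BuOE library and 40.3 in the unirradiated PBS library. Incenp, the scaffold of the complex, was at 35.1 CPM in the irradiated BuOE library and 72.2 in the irradiated PBS library, and 41.9 CPM in the unirradiated BuOE library and 92.7 in the unirradiated PBS library. Its ratios were -1.15 (-1.24 to -1.05) and -1.04 (-1.16 to -0.93). In the irradiated pair that was above Aurkb (-1.50, from -1.71 to -1.31), Birc5 and Cdca8, and in the unirradiated pair it was close to Aurkb (-1.17, from -1.34 to -1.02). Cdca8, which encodes borealin, was at 11.3 CPM in the irradiated BuOE library and 31.0 in the irradiated PBS library, and 15.0 CPM in the unirradiated BuOE library and 37.5 in the unirradiated PBS library.

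The 4 spindle assembly checkpoint genes had a median ratio of -1.27 between the unirradiated and -1.56 between the irradiated libraries, with Ttk and Mad2l1 far apart in the irradiated pair. Ttk, the kinase that starts checkpoint signalling (Mps1), stood at 4.20 CPM in the irradiated BuOE library and 17.5 in the irradiated PBS library, and 6.64 CPM in the unirradiated BuOE library and 18.5 in the unirradiated PBS library. Its ratio of -2.05 (-2.38 to -1.76) in the irradiated pair, or 4.13-fold lower, was the lowest of the 51. Bub1b, which encodes the inhibitor of Cdc20 known as BubR1, was at 22.5 CPM in the irradiated BuOE library and 55.1 in the irradiated PBS library, and 26.4 CPM in the unirradiated BuOE library and 61.9 in the unirradiated PBS library. Bub1, the kinase at kinetochores, had ratios of -1.31 and -1.84. Mad2l1, the Mad2 protein that binds Cdc20, was among the least lowered genes at 18.4 CPM in the irradiated BuOE library and 39.6 in the irradiated PBS library, and 19.6 CPM in the unirradiated BuOE library and 41.1 in the unirradiated PBS library, with ratios of -1.07 (-1.21 to -0.93) and -1.10 (-1.27 to -0.95).

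Among the 4 genes of anaphase onset, 3 were lower and 1 was not. Cdc20, the activator of the anaphase-promoting complex, was at 17.6 CPM in the irradiated BuOE library and 53.0 in the irradiated PBS library, and 23.0 CPM in the unirradiated BuOE library and 72.1 in the unirradiated PBS library. Ube2c, the ubiquitin-conjugating enzyme of that complex, was at 16.1 CPM in the irradiated BuOE library and 45.1 in the irradiated PBS library, and 20.8 CPM in the unirradiated BuOE library and 53.2 in the unirradiated PBS library. Espl1, which encodes separase, the protease that cuts cohesin, had ratios of -1.49 (-1.65 to -1.34) and -1.63 (-1.84 to -1.44). Pttg1 encodes securin, the inhibitor of separase that is destroyed at anaphase. It was at 25.5 CPM in the irradiated BuOE library and 16.4 in the irradiated PBS library, and 16.5 CPM in the unirradiated BuOE library and 13.9 in the unirradiated PBS library. Its order of libraries was the reverse of that of 45 other members, and its ratios were 0.25 (0.06 to 0.44) in the unirradiated and 0.63 (0.47 to 0.80) in the irradiated pair. Separase and securin, which bind each other as proteins, thus had ratios of opposite sign in both pairs.

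The 6 genes of centromeres and kinetochores had a median ratio of -1.35 between the unirradiated and -1.61 between the irradiated libraries. Cenpe, a kinesin that carries chromosomes to the spindle equator, was at 31.7 CPM in the irradiated BuOE library and 99.7 in the irradiated PBS library, and 39.1 CPM in the unirradiated BuOE library and 108 in the unirradiated PBS library. Cenpf, a protein of the outer kinetochore, was at 25.8 CPM in the irradiated BuOE library and 76.3 in the irradiated PBS library, and 35.2 CPM in the unirradiated BuOE library and 75.8 in the unirradiated PBS library. Cenpa, the histone variant that marks centromeres, had ratios of -1.36 and -1.43. Of the Ndc80 complex, which binds microtubules, Ndc80 had ratios of -1.35 and -1.73, Nuf2 of -1.26 and -1.78 and Spc25 of -1.34 and -1.20. Spc25 had the widest counting intervals of the group. It was at 5.68 CPM in the irradiated BuOE library and 13.2 CPM in the irradiated PBS library, and its interval there, from -1.50 to -0.93, was broad.

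Spindle motors and microtubule-associated proteins, 11 genes, had a median ratio of -1.43 between the unirradiated and -1.63 between the irradiated libraries. Tpx2, which activates Aurora A and nucleates spindle microtubules, was at 44.7 CPM in the irradiated BuOE library and 127 in the irradiated PBS library, and 52.7 CPM in the unirradiated BuOE library and 149 in the unirradiated PBS library. Kif11 (Eg5), the motor that separates spindle poles, was at 19.1 CPM in the irradiated BuOE library and 62.5 in the irradiated PBS library, and 24.4 CPM in the unirradiated BuOE library and 70.2 in the unirradiated PBS library. Kif15, a second motor of the same task, was the member with the lowest level per kilobase and stood at 8.73 CPM in the irradiated BuOE library and 28.7 in the irradiated PBS library, and 9.97 CPM in the unirradiated BuOE library and 32.8 in the unirradiated PBS library. Kif2c, a kinesin that depolymerises microtubules at kinetochores, was at 12.5 CPM in the irradiated BuOE library and 42.1 in the irradiated PBS library, and 18.3 CPM in the unirradiated BuOE library and 55.4 in the unirradiated PBS library. The chromokinesin genes Kif4 (-1.62 and -1.61) and Kif22 (-1.43 and -1.63) and the spindle protein genes Nusap1, Dlgap5, Hmmr and Ckap2l (from -1.40 to -1.15 in the unirradiated and from -1.66 to -1.53 in the irradiated pair) lay close to them. Ckap2, a spindle-pole protein, had the highest ratio of the group in the irradiated pair and was at 17.4 CPM in the irradiated BuOE library and 34.5 in the irradiated PBS library, and 14.2 CPM in the unirradiated BuOE library and 35.9 in the unirradiated PBS library, with ratios of -1.33 (-1.50 to -1.17) and -0.98 (-1.15 to -0.82).

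The 5 genes of the spindle midzone and cytokinesis had a median ratio of -1.52 between the unirradiated and -1.64 between the irradiated libraries. Anln, which encodes anillin of the contractile ring, was at 49.3 CPM in the irradiated BuOE library and 159 in the irradiated PBS library, and 58.4 CPM in the unirradiated BuOE library and 168 in the unirradiated PBS library. Prc1, which bundles midzone microtubules, was at 41.3 CPM in the irradiated BuOE library and 109 in the irradiated PBS library, and 59.0 CPM in the unirradiated BuOE library and 129 in the unirradiated PBS library. The midzone motors Kif20a (-1.54 and -1.64) and Kif23 (-1.26 and -1.70) and the activator of RhoA in cytokinesis, Ect2 (-1.60 and -1.54), were lower with BuOE too. For each of them both BuOE values lay below both PBS values, as in 26.6% of all 14366 genes.

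The 8 genes of chromosome structure had a median ratio of -1.30 between the unirradiated and -1.62 between the irradiated libraries. Mki67, whose product coats mitotic chromosomes and is the common marker of cycling cells, was at 116 CPM in the irradiated BuOE library and 431 in the irradiated PBS library, and 169 CPM in the unirradiated BuOE library and 441 in the unirradiated PBS library. Top2a, which encodes the topoisomerase that untangles sister chromatids, was at 77.7 CPM in the irradiated BuOE library and 272 in the irradiated PBS library, and 114 CPM in the unirradiated BuOE library and 296 in the unirradiated PBS library. Condensin I, the ring that compacts mitotic chromosomes, is built of Smc2, Smc4, Ncapd2, Ncaph and Ncapg. Smc2 had ratios of -1.22 and -1.60, Ncapd2 of -1.18 and -1.42, Ncaph of -1.13 and -1.31 and Ncapg of -1.63 and -1.75. Ncapg was at 7.84 CPM in the irradiated BuOE library and 26.6 in the irradiated PBS library, and 8.22 CPM in the unirradiated BuOE library and 25.6 in the unirradiated PBS library. Smc4 was the least lowered of the 50 genes, at 61.9 CPM in the irradiated BuOE library and 110.0 in the irradiated PBS library, and 50.5 CPM in the unirradiated BuOE library and 103 in the unirradiated PBS library, with ratios of -1.03 (-1.12 to -0.94) and -0.83 (-0.92 to -0.74). Of condensin II, the sister complex, Ncapg2 (-1.19 and -1.26) lay in the range of condensin I genes in both pairs and Ncapd3 (-0.74 and -1.05) in the irradiated pair. Ncaph2 was near 0, with ratios of -0.15 (-0.22 to -0.07) and -0.01 (-0.08 to 0.07).

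Radiation was compared within each arm. In the PBS arm 46 of 51 genes were lower in the irradiated library, against 50.4% of all genes, but none was as much as 1.5-fold lower, against 3.67% of all genes. The median ratio was -0.23, or 1.17-fold lower. Cdc20 was lowest, at 53.0 CPM in the irradiated and 72.1 CPM in the unirradiated library (-0.45, from -0.54 to -0.36), followed by Plk1 (-0.43, from -0.51 to -0.35) and Melk (-0.42, from -0.55 to -0.29). Entry genes (median -0.28), passenger complex genes (-0.29) and anaphase genes (-0.32) were further down than checkpoint genes (-0.09), kinetochore genes (-0.10) and genes of chromosome structure (-0.05). Mki67 itself had a ratio of -0.03 (-0.07 to 0.00), and for 13 of the 51 the counting interval included 0. The highest ratios were those of Pttg1 (0.24, from 0.06 to 0.42), Smc4 (0.09, from 0.03 to 0.16) and Ncapg (0.05, from -0.09 to 0.19).

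In the BuOE arm 48 of 51 genes were lower in the irradiated library, against 48.7% of all genes. At least 1.5-fold lower were 10 of them, against 10.2% of all genes, and none was 2-fold lower, against 4.68%. The median ratio was -0.39, or 1.31-fold lower. Cdca3 was lowest with 7.93 CPM in the irradiated and 15.5 CPM in the unirradiated library (-0.96, from -1.22 to -0.72), followed by Ccna2 (-0.73, from -0.90 to -0.57) and Ttk (-0.65, from -1.02 to -0.31). Pttg1 (0.63, from 0.45 to 0.80), Ckap2 (0.29, from 0.10 to 0.49) and Smc4 (0.29, from 0.19 to 0.40) were higher in the irradiated library, and Pttg1 was the 1 gene at least 1.5-fold higher, against 9.54% of all genes. Between the same libraries the mitochondrially encoded mRNAs had medians of 2.04 in the BuOE arm and 1.12 in the PBS arm, and fibroblast markers of -0.49 and 0.48. Neuronal markers had medians of -3.68 in the BuOE arm and 2.61 in the PBS arm, and adipocyte markers of 1.45 and -3.99. Schwann cell markers had -0.89 and 1.80, endothelial markers 0.07 and 1.19, and pericyte and smooth muscle markers -0.18 and 1.01. The part of these lists in the ratios of the mitosis genes was not tested. The count of 10 depended on the scaling: it was 20 with library size alone, 17 with upper-quartile factors and 36 relative to the reference genes. In that order of scalings the median of all genes moved too, to -0.15, -0.06 and -0.31. The median of the mitosis genes minus that of all genes was -0.40 in each, as in the main scaling. The share of all genes at least 1.5-fold lower was not counted under these other scalings.

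The radiation ratios of the arms share no library. They had the same sign in 47 of 51 genes, with a Pearson correlation of 0.503 and a Spearman correlation of 0.286 across genes, and of 0.361 and 0.242 without Pttg1. Over all 14366 genes the sign was the same in 56.9%, and the correlations were -0.237 and 0.127. The ratio in the BuOE arm minus that in the PBS arm had a median of -0.15 and was below 0 in 37 of 51 genes, against 47.9% of all genes, but as much as 1.5-fold in none, against 14.2% of all genes. Its extremes were Ttk (-0.58) and Cdca3 (-0.58) at the low end and Pttg1 (0.39) and Ckap2 (0.35) at the high end. With 1 library per condition this difference could not be tested. Irradiated BuOE set against unirradiated PBS, which uses libraries already described, gave a median of -1.87 (3.65-fold lower), with 50 of 51 genes at least 1.5-fold lower, against 15.0% of all genes, 1 at least 1.5-fold higher (Pttg1), against 19.8%, and Cdca3 (-2.31, from -2.55 to -2.10), Ccna2 (-2.22) and Kif2c (-2.14) at the low end.

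Levels of different genes were compared per kilobase of annotated exon (GENCODE M21, build GRCm38). The length is that of the exons of all annotated transcripts of a gene, merged. It can exceed the length of any single mRNA, so the order of genes depends on the annotation. In the unirradiated PBS library Mki67 was highest with 43.8 CPM per kilobase, followed by Cdc20 (38.6), Plk1 (38.6) and Top2a (32.8), and Kif15 was lowest with 2.97. Mki67 also led the irradiated PBS library, with 42.8, and the unirradiated BuOE library, with 16.8. In the irradiated BuOE library Pttg1 was at the top with 12.7 CPM per kilobase, ahead of Smc4 (11.9) and Mki67 (11.5), whereas it ranked 38 of 51 in the unirradiated PBS library with 6.94. Kif15 was lowest in all 4 libraries.

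A further 76 genes of mitosis that are not among the 51 gave a similar but broader picture. Between the unirradiated libraries 64 of 76 were at least 1.5-fold lower with BuOE, against 10.3% of all genes, with a median of -1.18 and quartiles of -1.44 and -0.81, and between the irradiated libraries 61 of 76, against 12.4%, with a median of -1.36. The lowest were Troap (-2.01) and Depdc1a (-1.97) in the unirradiated pair, and Depdc1b (-2.18) and Depdc1a (-2.08) in the irradiated pair. The highest were Zwint (0.03), a kinetochore protein, and Ncaph2 (-0.15) in the unirradiated pair, and Psrc1 (0.97), a spindle protein that is also a p53 target, and Ncaph2 (-0.01) in the irradiated pair. Psrc1 stood at 23.0 CPM in the irradiated BuOE library and 11.7 in the irradiated PBS library, and 11.1 CPM in the unirradiated BuOE library and 16.6 in the unirradiated PBS library, so the BuOE library was the higher in the irradiated pair and the lower in the unirradiated pair.

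Replication and S phase genes, the neighbouring part of the cell cycle, were also lower with BuOE. All 50 had a ratio below 0 in both pairs, against 49.9% of all genes in the unirradiated and 50.6% in the irradiated pair, with medians of -1.06 and -0.98. At least 1.5-fold lower were 44, against 10.3% of all genes, and 41, against 12.4%. Tk1, the thymidine kinase gene, was lowest in both pairs (-1.75 and -1.92), and Rpa3 (-0.30) and Pold2 (-0.03) were highest. For each 100 CPM of S phase genes the mitosis genes had 81.8 CPM in the irradiated BuOE library and 127 in the irradiated PBS library, and 97.6 CPM in the unirradiated BuOE library and 119 in the unirradiated PBS library. Between the irradiated and unirradiated libraries the S phase genes had medians of -0.23 in the PBS arm and -0.11 in the BuOE arm, where the mitosis genes had -0.23 and -0.39. No test of the difference between the lists was made.

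**Figure D5:**
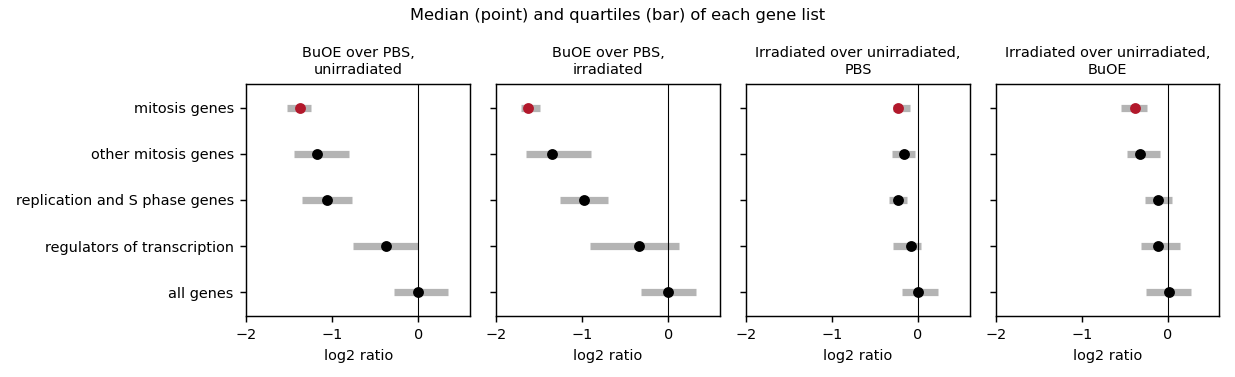
Median (point) and quartiles (bar) of the log2 ratios of the 51 mitosis genes, 76 other mitosis genes, 50 replication and S phase genes, 22 regulators and all 14366 genes in 4 library pairs. With BuOE the lists follow in that order from the lowest median to the highest, and with radiation all medians lie within 0.39 of 0.

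Of 23 genes that regulate transcription of mitotic genes, 22 were measured, and Lin54 was not analysed here. Their medians with BuOE were -0.38 and -0.34 in the unirradiated and irradiated pair. At least 1.5-fold lower were 7 of 22, against 10.3% of all genes, and 9 of 22, against 12.4%. At least 1.5-fold higher were 2 of 22, against 16.3% of all genes, and 3 of 22, against 13.0%, shares below or near those of all genes. The activators are themselves expressed in cycling cells. Foxm1 stood at 23.4 CPM in the irradiated BuOE library and 67.1 in the irradiated PBS library, and 33.7 CPM in the unirradiated BuOE library and 96.9 in the unirradiated PBS library, with a ratio of -1.52 in the unirradiated and -1.52 in the irradiated pair. Mybl2 (B-Myb) stood at 5.38 CPM in the irradiated BuOE library and 16.2 in the irradiated PBS library, and 6.71 CPM in the unirradiated BuOE library and 20.1 in the unirradiated PBS library. The repressor genes E2f7 (-1.84 and -1.76) and E2f8 (-1.82 and -1.55), which are switched on in S phase, were lower with BuOE too. Rb1, the retinoblastoma gene, stood at 46.2 CPM in the irradiated BuOE library and 28.7 in the irradiated PBS library, and 37.0 CPM in the unirradiated BuOE library and 21.6 in the unirradiated PBS library. Rbl2, which encodes p130 of the DREAM complex, had ratios of 0.59 (0.48 to 0.70) and 0.37 (0.26 to 0.47), and Lin52 of the MuvB core 0.42 (0.12 to 0.72) and 0.74 (0.47 to 1.02). Rb1, Rbl2 and Lin52 are named because they stood at the upper end of the list in 1 or both pairs. Above 0 were 6 of 22 genes in the unirradiated and 7 of 22 in the irradiated pair, against 7191 and 7101 of all 14366 genes. Rbl1, E2f4, Lin9, Lin37 and Rbbp4 are not given here, so these values do not describe DREAM or MuvB as a whole.

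A fit over all 4 libraries, with radiation and BuOE as additive terms, is the only one here with an error term. It takes the difference between the arms as error and has 1 residual degree of freedom. For BuOE, edgeR's quasi-likelihood test with Benjamini-Hochberg adjustment over 14366 genes called none of the 51 and no gene at all (0.00%), with adjusted p between 0.0892 and 0.28 for the members. At an unadjusted p under 0.05, 50 of the 51 passed, against 19.7% of all genes. DESeq2 called 50 of the 51 lower, against 2.99% of all genes, and limma-voom called none (0.00% of all genes), with an unadjusted p under 0.05 for 50, against 20.0%. When edgeR was run on the 9877 genes averaging 10 CPM or more, it called 50 of the 51 lower, against 2.38% of genes, with a smallest adjusted p of 0.0356. Pttg1 was the gene left out each time. For radiation no tool called any member, and DESeq2 called 0.787% of all genes. The smallest adjusted p of a member was 0.686 in edgeR on the 14366 genes, 0.494 in edgeR on the 9877 genes and 0.685 in limma-voom. On the 14366 genes, 11 of 51 members had an unadjusted p under 0.05 in edgeR, against 7.16% of all genes. In DESeq2 2 of 51 had one, against 4.62%, and in limma-voom 6 of 51, against 7.16%.

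Reads from overlapping genes limit some values, since nothing in the labels or notes says whether the counts used strand. In GENCODE M21, 15 of the 51 genes share exon bases with another gene model, and 6 of them share at least 10% with 1 model: Kif20a shares 29.3% with Cdc23 and Ube2c 22.8% with Tnnc2, both on the opposite strand, followed by Kif4, Ncapg, Ccna2 and Prc1. Pttg1 is not among the 15.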

How the data were processed

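The values used are the counts of reads per gene that the authors deposited for the 4 libraries; the submitters' processing notes name featureCounts, GRCm39, Trim Galore 0.6.4, FastQC, Salmon 1.4.0 and edgeR 4.2.2 without their role. The annotation release and the strand and multi-mapping settings are not given in the sources used here. Groups follow the treatment in the labels, and no sample column was left unused. Symbols were joined by Ensembl ID without version (52073 of 56748 rows). TMM factors came from edgeR 4.0.16 (R 4.3.3) on the 14366 genes averaging 1 CPM or more. Log2 ratios used a prior count of 2, and intervals are exact binomial (95%). Whether duplicates were removed is not given, and intervals cover counting error only. Lists are described by counts and medians beside all genes. The additive fit used edgeR, DESeq2 1.42.0 and limma 3.58.1. The steps were tested on simulated counts. Alternatives were other scalings, filters, prior count, fold limit and tools, and the closing section gives their effect.

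The members, lists, 1.5-fold limit and alternatives were chosen with earlier results of these data known. Any member could be named. Values in every library are given for 8 fixed members, the 2 most abundant of each role and, per comparison, the 3 members at each end of the ratios. Of other lists the rule was 2 genes at each end of the ratios per comparison. The printed promoters and the genes of condensin II were chosen after their values were seen. Sequences are from RefSeq (GRCm38.p6) and were matched by symbol.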

Additional observations from a re-analysis of the deposited data

How the results depend on the processing

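Over all scalings the medians of the mitosis genes kept their sign in every comparison. Because a scaling shifts all genes alike, the median of all genes moved by -0.16 (radiation in the BuOE arm) and -0.17 (difference between the arms) with library size alone. Relative to the reference genes it moved by 0.46 (BuOE over PBS, unirradiated), -0.32 (radiation in the BuOE arm), 0.15 (radiation in the PBS arm), 0.14 (irradiated BuOE over PBS) and -0.47 (difference between the arms). For BuOE the median of the mitosis genes minus that of all genes stayed at -1.38 (unirradiated) and -1.62 (irradiated) with the main TMM, DESeq2 and upper-quartile factors. With TMM and no filter it was -1.39 and -1.69, and with TMM and a mean of at least 10 CPM -1.33 and -1.62. In the order BuOE unirradiated, BuOE irradiated, radiation in PBS, radiation in BuOE, irradiated BuOE over PBS, difference between the arms, the medians were -1.30, -1.72, -0.22, -0.54, -1.95 and -0.32 with library size alone. With upper-quartile factors they were -1.36, -1.68, -0.23, -0.46, -1.92 and -0.23. Without a filter on low counts they were -1.39, -1.69, -0.23, -0.43, -1.93 and -0.21. With a mean of at least 10 CPM they were -1.33, -1.63, -0.21, -0.41, -1.85 and -0.21. Relative to the reference genes they were -0.91, -1.63, -0.08, -0.71, -1.72 and -0.62.

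The counts of 50 genes at least 1.5-fold lower with BuOE stayed at 50 under every other scaling, filter and prior count, with 1 exception. Relative to the reference genes the count was 49 in the unirradiated pair. At least 2-fold lower were 50 genes in the unirradiated pair, 48 in the irradiated pair and 49 for irradiated BuOE over PBS. Of all genes, 4.13% and 5.31% were so in the 2 pairs, and 793 of 14366 for irradiated BuOE over PBS. For radiation in the BuOE arm the 10 genes at least 1.5-fold lower became 20 with library size alone, 17 with upper-quartile factors, 36 relative to the reference genes and 0 at 2-fold. For the difference between the arms the 0 genes became 10, 7 and 32 with those scalings, 3 without a filter or with a mean of at least 10 CPM, and 1 with a prior count of 0.5. Shares of all genes past a fold limit were counted under the main scaling, filter and prior count only, so these moved counts have no such share beside them. The call of Pttg1 as the 1 gene at least 1.5-fold higher ended (0 genes) for radiation in the BuOE arm with library size alone, upper-quartile factors, no filter, the reference genes and at 2-fold; for BuOE after radiation with library size, upper-quartile factors, no filter and at 2-fold; and for irradiated BuOE over PBS at 2-fold, and it was made (1 gene) for unirradiated BuOE relative to the reference genes. In the additive fit the 0 members called for BuOE became 50 with a mean of at least 10 CPM and 50 with DESeq2. The cause of these moves was not tested.

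No paired analysis was possible because each group holds 1 library, and leaving out a library leaves the additive fit no residual degree of freedom and the ratios no partner. Depth limits the small ratios: in the comparison of radiation in the PBS arm the counting interval of 13 of 51 genes included 0, and in that in the BuOE arm 6 of 51.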
